A study of Mus musculus with 4 samples.

Results

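The cells described here were dorsal root ganglion (DRG) neurons that carried the transcripts C1ql4, Gpx2, Fbp2 and Ceacam10 with little or no Th mRNA. A cell was a member when its Th level was below 1 CP10K (UMIs per 10000 UMIs of the cell, a UMI being 1 counted mRNA molecule), when at least 3 of the 6 genes C1ql4, Gpx2, Fbp2, Ceacam10, Wfdc2 and Lrrc31 had a UMI, and when the natural log of 1 plus its CP10K of Sprr1a, a gene induced in injured neurons, was at most 1. There were 862 members among the 17836 cells that had at least 1500 genes, at least 5000 UMIs and at most 10% mitochondrial UMIs, of 23691 cells in all. Members were thus chosen by the measured levels of these 8 genes, so their levels and the differences between the members and other neurons are a description without a test.

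C-low-threshold mechanoreceptors (cLTMRs) are unmyelinated sensory neurons that innervate hairy skin and respond to gentle touch. They are usually recognized by tyrosine hydroxylase (Th, the first enzyme of catecholamine synthesis), the vesicular glutamate transporter Slc17a8 and the secreted protein Fam19a4, and they depend on the mechanically gated channel Piezo2 for touch responses. Their neighbours in many classifications are the nonpeptidergic nociceptors that carry the receptor Mrgprd.

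All mice were heterozygous Pirt-EGFPf animals on a C57BL/6 background, aged 7 to 8 weeks, in which EGFPf replaced the Pirt coding sequence and was driven by the Pirt promoter, so the sort was set to favour cells with Pirt activity. The sciatic nerve was loosely tied on both sides (chronic constriction injury, CCI) or the mice had sham surgery, and L4-5 DRGs were taken on day 7. Each of the 4 libraries (sham and CCI, each from males and from females) pooled GFP-sorted cells of 5 mice and 20 DRGs, brothers and sisters of a litter were given 1 kind of operation, and single mice could not be told apart. Each surgery thus had 2 libraries, 1 per sex, which served as its replicates, and litter and surgery cannot be told apart. Below, series of 4 values give sham first (Male-Sham, then Female-Sham) and CCI after it (Male-CCI, then Female-CCI).

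The 4 libraries held 245, 447, 75 and 95 members, with medians of 54678, 36998, 59328 and 44547 UMIs per member. Summed member counts were 13279422, 16795757, 4526975 and 4123380 UMIs, so that a count of 3 UMIs stood for 0.226, 0.179, 0.663 and 0.728 CPM (counts in 1000000). Of 22186 distinct barcodes, 1085 occurred in more than 1 library, and 33 members (14, 5, 13 and 1) carried such a barcode, 31 of them as its deepest cell. Levels below are CPM of the members' summed counts in a library, and they compare a gene between groups. The reads came from transcript ends, so no correction for gene length was made. Free RNA from broken cells gives UMIs in cells that do not make a gene. Shares of cells with a UMI are therefore given after every cell was thinned to 5000 UMIs, beside the same share in 340 satellite glial cell (SGC)-like cells (Apoe of at least 200 CP10K), whose median depths were 7924, 7897, 6492 and 6900 UMIs.

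Sequences around the RefSeq starts of 3 of the rule's genes are shown because these transcripts define the population. Each runs from 250 bases before to 50 bases after the RefSeq start on GRCm38.p6, 5′ to 3′ on the gene's strand, and capitals mark an AP-1 motif (TGANTCA, searched on both strands). C1ql4 (chr15:99087679-99087978, minus strand) encodes a secreted C1q-like protein. Gpx2 (chr12:76795505-76795804, minus strand) encodes a glutathione peroxidase better known from gut epithelium. Fbp2 (chr13:62858351-62858650, minus strand) encodes the muscle form of fructose-1,6-bisphosphatase. Another annotation starts C1ql4 at 99087817 and Fbp2 at 62858422, upstream of these RefSeq starts. By that annotation, more than 50 bases of both windows lie inside the gene.
C1ql4: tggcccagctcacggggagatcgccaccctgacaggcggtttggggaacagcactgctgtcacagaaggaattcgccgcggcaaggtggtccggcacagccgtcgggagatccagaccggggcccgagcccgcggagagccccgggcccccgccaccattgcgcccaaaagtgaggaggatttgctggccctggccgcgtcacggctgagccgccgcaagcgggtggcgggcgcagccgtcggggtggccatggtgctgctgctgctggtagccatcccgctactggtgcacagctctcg
Gpx2: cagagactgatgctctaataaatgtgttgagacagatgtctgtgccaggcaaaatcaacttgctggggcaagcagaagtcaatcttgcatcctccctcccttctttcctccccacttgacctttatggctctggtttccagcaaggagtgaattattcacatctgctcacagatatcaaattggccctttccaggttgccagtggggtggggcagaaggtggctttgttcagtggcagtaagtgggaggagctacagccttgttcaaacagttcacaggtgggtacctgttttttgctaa
Fbp2: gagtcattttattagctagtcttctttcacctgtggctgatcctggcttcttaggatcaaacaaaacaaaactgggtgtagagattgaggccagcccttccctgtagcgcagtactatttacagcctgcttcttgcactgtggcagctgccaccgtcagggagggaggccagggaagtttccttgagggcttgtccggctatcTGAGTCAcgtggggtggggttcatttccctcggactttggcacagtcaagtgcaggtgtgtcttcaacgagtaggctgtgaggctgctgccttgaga
The AP-1 motif lay 47 bases before the Fbp2 start and in no other of the 8 promoter windows of the 6 marker genes. It was present in 7.81% of all 32851 promoter windows of the same length, and in 4.64% of those of tested genes. The CRE motif (TGACGTCA) and the RUNX motif (TGTGGT), both searched on both strands, were in 0 of the 8 windows, and in 1.79% and 16.8% of all windows.

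Marker-positive cells lay on both sides of the Th limit. The ranges of Th given next differ in width, so their counts do not show a gap at the limit. Among 1648 Sprr1a-low cells with at least 3 of the 6 markers, 602 had no Th UMI, 200 had up to 0.5 CP10K, 60 lay between 0.5 and 1, 73 between 1 and 2, 307 between 2 and 5, and 406 at 5 or above. None reached 20 CP10K. The members nearest the limit were at 0.989, 0.985 and 0.979 CP10K, and the nearest cells outside were at 1.02, 1.03 and 1.03. Cells below 1 CP10K made up 54.4%, 53.3%, 54.0% and 43.2% of the marker-positive cells, and the lowest of the 4 values was in Female-CCI. In summed counts, members had 8.81, 12.2, 9.94 and 11.9 CPM of Th, close to the 7.24, 8.32, 6.46 and 6.14 CPM of the remaining Sprr1a-low cells. These are called other neurons below and leave out members, cells gated on Th, Mrgprd or Mrgpra3, marker-positive cells between the Th limits and SGC-like cells.

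**Figure D1:**
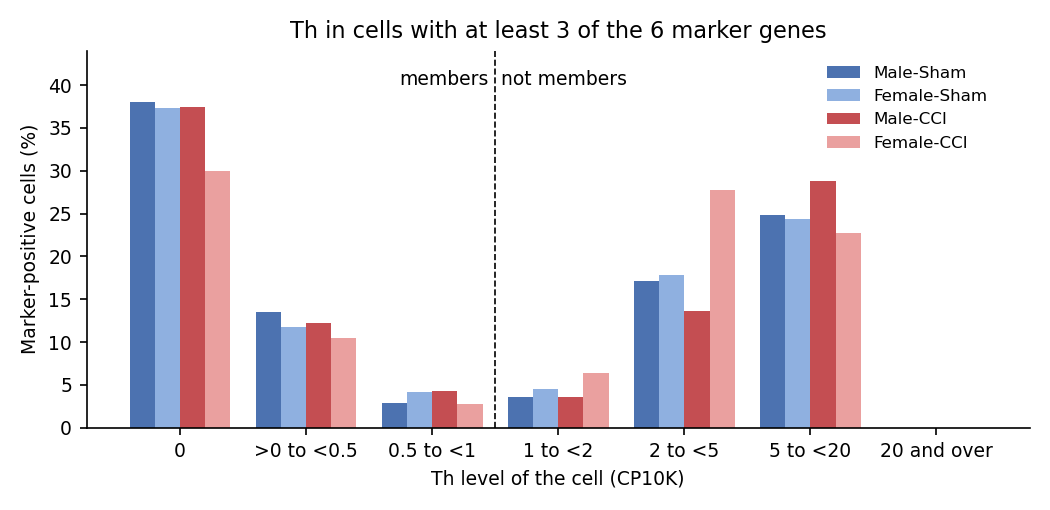
Percent of marker-positive, Sprr1a-low cells (at least 3 of the 6 markers) in each bin of Th level in CP10K, with 1 bar for each of the 4 libraries. The dashed line is the limit of 1 CP10K, and the cells left of it are the 862 members, most of them without a Th UMI.

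For comparison, Th-high cells were taken as Sprr1a-low cells with at least 5 CP10K of Th (115, 211, 42 and 54 cells), and cells with at least 3 markers and Th between the limits were kept as a class of 380. Th-high cells had 761, 743, 738 and 688 CPM of Th.

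C1ql4 stood at 330, 340, 308 and 257 CPM in members and at 160, 167, 113 and 109 CPM in Th-high cells. Every library of members was above every library of Th-high cells. A C1ql4 UMI was found in 72.7%, 73.8%, 58.7% and 62.1% of thinned members, against 0.8%, 1.2%, 0% and 1.6% of SGC-like cells. Gpx2 was at 241, 216, 205 and 223 CPM in members, against 65.5, 51.3, 50.2 and 48.3 CPM in Th-high cells. Lrrc31, a leucine-rich repeat gene, was at 59.6, 60.7, 55 and 56.7 CPM, against 12.8, 11.5, 12.4 and 11.9 CPM. These 2 genes showed the widest gaps among the 6 markers.

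Fbp2 was at 204, 175, 193 and 148 CPM in members and at 94.2, 64.9, 106 and 66.6 CPM in Th-high cells. Ceacam10, a carcinoembryonic antigen family member, had 296, 309, 272 and 305 CPM against 316, 367, 312 and 240 CPM. Wfdc2, a secreted protein of the whey acidic protein family, had 251, 302, 242 and 225 CPM against 306, 344, 381 and 281 CPM. Both sets of cells therefore carried Ceacam10 and Wfdc2 at overlapping levels, while C1ql4, Gpx2, Fbp2 and Lrrc31 were higher in members in each library. Among relatives of these genes, Fbp1, the liver form, averaged 3.90 CPM in members against 180 CPM of Fbp2.

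The number of markers divided the members unevenly. Of the 862 members, 376 had a UMI of all 6 markers, 299 of 5, 93 of 4 and 94 of 3, while 351 cells with 2 markers lay just outside. Members with 3 markers were deep cells (median 61271.5 UMIs) with little of any marker: their summed marker level had a median of 1.11 CP10K, against 9.27, 13.7 and 18.6 CP10K in members with 4, 5 and 6. They had 27.9 CPM of C1ql4, 64.7 CPM of Fam19a4, 170 CPM of Mrgprd, 766 CPM of Ly86 and 1927 CPM of Calca. The leading genes of these 94 cells thus went against the cLTMR label, and they are called members with 3 markers. The 768 members with 4 to 6 markers had all 15 of 15 cLTMR genes at 20 CPM or more in every library, with a summed level of 2907 ± 230 CPM (SD, n = 4 libraries), against 3623 ± 185 CPM in Th-high cells and 1645 ± 172 CPM in members with 3 markers. Their summed level of 5 markers of the Mrgprd class was 22.0 CPM, against 428 CPM in members with 3 markers and 1109 CPM in cells gated on Mrgprd.

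In all members, Fam19a4 averaged 199 CPM, against 379 CPM in Th-high cells, 12.2 CPM in Mrgprd-high cells and 5.15 CPM in other neurons. Slc17a8 averaged 34.6 CPM, against 63.4, 0.169 and 1.26 CPM. P2ry1, a purinergic receptor, averaged 168 CPM in members, 224 CPM in Th-high cells and 9.70 CPM in Mrgprd-high cells. The transcription factor Bhlha9 averaged 170, 207 and 24.7 CPM in the same order, and the zinc finger factor Zfp521, which is needed for cLTMR features, averaged 79.1, 105 and 0.869 CPM. Piezo2 averaged 565 CPM, against 712 CPM in Th-high cells, 334 CPM in Mrgprd-high cells and 124 CPM in other neurons. Cacna1h, a low-voltage-activated calcium channel, averaged 65.1 CPM in members and 41.8 CPM in Th-high cells, so it ran opposite to most of the list.

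In every library, 29 of 2944 genes were more than 2-fold higher in members than in Th-high cells, and 5 of 2940 were more than 2-fold lower. These counts include genes of the rule, namely C1ql4, Gpx2 and Lrrc31 among the higher and Th among the lower. The genes named next are outside the rule. Among the higher genes, Calml4, a calmodulin-like gene, averaged 87.6 against 16.8 CPM. Nrp2, a semaphorin receptor, averaged 70.7 against 13.1 CPM. Pdlim2, a PDZ and LIM domain gene, averaged 338 against 77.2 CPM. Each of these 3 was as high in members with 4 to 6 markers (96.7, 79.5 and 362 CPM). Scn4b, a sodium channel beta subunit, averaged 72.8 against 21.7 CPM, and the neurofilaments Nefh and Nefm averaged 139 against 38.4 CPM and 366 against 121 CPM. In members with 4 to 6 markers Scn4b averaged 78.5 CPM, while Nefh and Nefm were lower than in all members, at 118 and 303 CPM. Members with 3 markers had 300 CPM of Nefh.

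The genes with the largest ratios were carried by few cells. Ly86 averaged 115 CPM in members and 1.43 CPM in Th-high cells, but 17.3 CPM in members with 4 to 6 markers and 766 CPM in those with 3. Tmem233 averaged 157 against 6.49 CPM, and 35.3 CPM in members with 4 to 6 markers. The median member had 0 CP10K of Ly86, of Tmem233 and of S100b in every library. The peptidergic gene Calca averaged 654 against 198 CPM, yet its median per cell was 0.836, 0.978, 0.434 and 0.675 CP10K in members and 0.717, 0.915, 0.346 and 0.670 CP10K in Th-high cells. Thinned members had a Calca UMI in 43.3%, 47.0%, 25.3% and 28.4% of cells, below the 62.8%, 64.7%, 33.3% and 61.9% of SGC-like cells, so this share is not read as expression of Calca by the typical member.

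Lower in members were Cckar, the cholecystokinin A receptor (15.8 against 90.2 CPM), and Lypd1, a modulator of nicotinic receptors (13.6 against 65.9 CPM). Fgf12, an intracellular regulator of sodium channels, averaged 363 against 673 CPM. In the class gated between the Th limits, Pdlim2 averaged 139 CPM, Cckar 77.1 CPM and Fam19a4 334 CPM, each between members and Th-high cells, while C1ql4 averaged 134 CPM, slightly below the 137 CPM of Th-high cells and not between.

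Against other neurons, as defined above, 148 of 2944 genes were more than 2-fold higher in every library. This count includes the 6 markers of the rule, which are left out of the genes named next. After Fam19a4, the highest ratios included Cd34, a sialomucin best known from blood progenitors (95.4 against 0.960 CPM), the protease inhibitor Spink2 (97.8 against 2.95 CPM), the nuclear factor Tox3 (211 against 14.8 CPM), Rarres1 (609 against 58.1 CPM), Rasgrp1, a Ras activator (446 against 53.2 CPM), and Rprm (469 against 63.0 CPM). Cells with at least 3 markers and Th between the limits, which are not among these other neurons, had 152 CPM of Cd34, 122 CPM of Spink2 and 555 CPM of Rarres1.

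**Figure D2:**
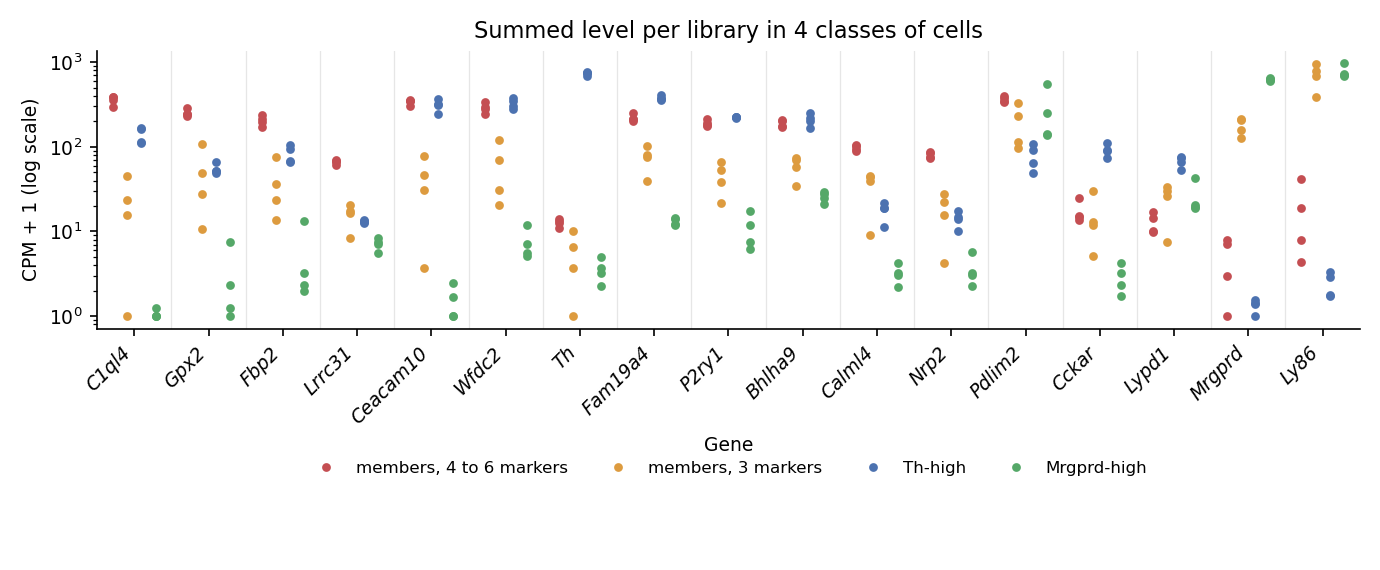
Level of 17 genes as CPM plus 1 (log axis) in members with 4 to 6 markers, members with 3 markers, Th-high cells and Mrgprd-high cells, with 1 point per library. C1ql4, Gpx2 and Lrrc31 sit highest in members with 4 to 6 markers, Th in Th-high cells, and Mrgprd and Ly86 are raised in members with 3 markers.

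Members made up a smaller share of the CCI libraries. They were 6.27%, 6.94%, 2.24% and 2.29% of filtered cells, with 95% Clopper-Pearson intervals of 5.53 to 7.08, 6.33 to 7.59, 1.77 to 2.80 and 1.86 to 2.79, which cover counting error only. The sham libraries averaged 6.61 ± 0.474% and the CCI libraries 2.27 ± 0.0339% (SD, n = 2 each), and the groups did not overlap. The difference of -4.34 percentage points had p = 0.333 in an exact two-sided permutation test over libraries, the smallest value that 2 against 2 allows. The Sprr1a limit was passed by 3835, 6208, 1583 and 2027 filtered cells. As a share of those cells, in place of all filtered cells, the members were 6.39%, 7.20%, 4.74% and 4.69%, a difference of -2.08 points. Only 0, 3, 6 and 12 cells met every other condition and failed that limit. With no limit on Sprr1a the difference in the share of filtered cells was -4.13 points. Th-high cells were also rarer in the CCI libraries, at 2.94%, 3.28%, 1.26% and 1.30% of filtered cells.

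**Figure D3:**
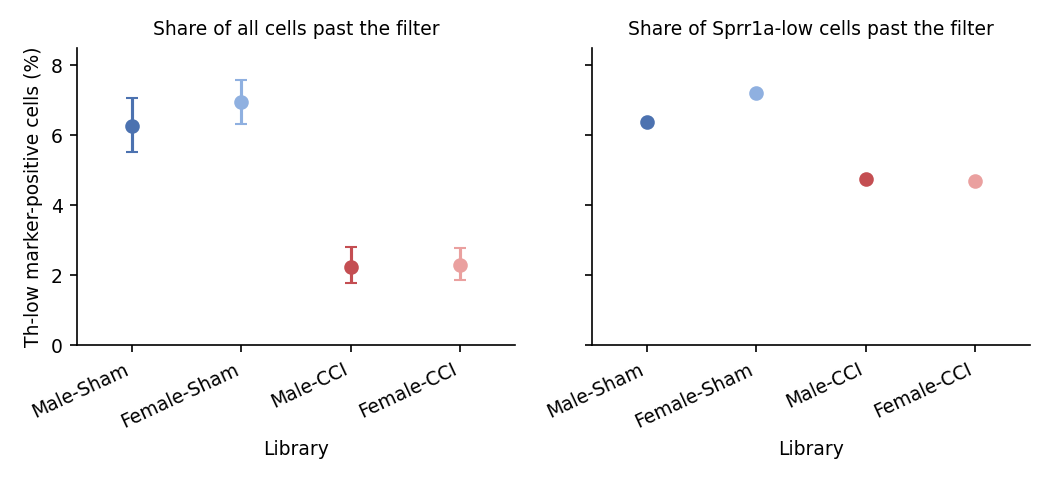
Members as a percent of filtered cells with 95% Clopper-Pearson intervals (left) and as a percent of Sprr1a-low filtered cells (right), 1 point per library. The 2 CCI libraries lie below the 2 sham libraries in both panels, and the gap is narrower on the right.

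The question of what CCI changed in these neurons was asked by summing each library's members and testing 2 CCI against 2 sham libraries over all genes. In members, 308 of 12130 genes passed edgeR's quasi-likelihood test (Benjamini-Hochberg adjusted p below 0.05 and a log2 change beyond 0.5), 2.54% of those tested. They comprised 171 that rose (1.41%) and 137 that fell (1.13%), and the median log2 change over all genes was 0.005. Without regard to the test, both CCI libraries lay above both sham libraries for 29.5% of genes and below them for 22.8%. Members with the highest Scrublet doublet scores of their library were 45, 77, 15 and 9 cells (18.4%, 17.2%, 20.0% and 9.47% of members, against 15.3%, 16.8%, 14.4% and 13.3% of filtered cells). Leaving them out brought the calls to 194, of which 161 were among the 308, and keeping members without a Sprr1a UMI brought them to 192, with 85 up and 107 down. Summed SGC marker levels did not separate the surgeries, at 1487, 1888, 1518 and 1316 CPM against 82921 to 111770 CPM in SGC-like cells, and all 10 SGC markers had a UMI in members.

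Genes that respond to axon injury included Atf3, a transcription factor induced in axotomized neurons. Atf3 was at 26.7, 33.4, 128 and 107 CPM, and both CCI libraries lay above both sham libraries. It rose by 1.94 ± 0.12 on the log2 scale (SE, edgeR with Benjamini-Hochberg adjustment, adjusted p = 3.56e-06). Sox11, a transcription factor of growing neurons, was at 30.4, 30.5, 87.5 and 88.8 CPM and rose by 1.5 ± 0.08 (edgeR, adjusted p = 1.96e-09). Gadd45a, a growth arrest and DNA damage gene, was at 30.4, 30.4, 84.2 and 82.0 CPM and rose by 1.42 ± 0.09 (edgeR, adjusted p = 3.3e-09). For both genes the libraries of a surgery were nearly equal. A Sox11 UMI was in 15.9%, 12.5%, 32.0% and 29.5% of thinned members, above the 3.88%, 7.06%, 6.35% and 15.9% of SGC-like cells, whereas for Atf3 the SGC-like cells (20.9%, 45.9%, 25.4% and 47.6%) lay above the members (13.5%, 12.3%, 20.0% and 15.8%). Kif22, a kinesin, was at 10.5, 11.6, 27.8 and 38.8 CPM and rose by 1.56 ± 0.16 (edgeR, adjusted p = 1.05e-05). Of 28 listed injury genes, 24 were tested, 13 rose and none fell, with a median log2 change of 1.37. The list was drawn up with results of these libraries known, so its count is not independent evidence of a direction. Gal, the neuropeptide galanin, did not pass (log2 change 1.88 ± 0.81, edgeR adjusted p = 0.402), and its thinned shares of 6.12%, 6.49%, 17.3% and 18.9% were below those of SGC-like cells (22.5%, 34.1%, 27.0% and 57.1%).

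Some of these injury genes lay mostly in 12 cells. Among the CCI members, 12 had at least 5 CP10K of Atf3 (5.68 to 20.6), while the other 158 had a median of 0.196 CP10K. None of the 12 had all 6 markers, 5 had 3, and their summed marker level had a median of 5.47 against 13.0 CP10K. The cells were picked for Atf3, so these values are a description. All 12 had a Sprr1a UMI, as did 108 of the other 158, and 8 of the 12 had a high doublet score, against 16 of 158. These 12 cells held 94.5% and 91.4% of the Anxa1 UMIs of the Male-CCI and Female-CCI members, and 80.0% and 84.1% of those of the guidance cue Sema6a, but 14.3% and 50% of those of Ecel1, an endopeptidase-like gene, 0% and 22.2% of those of Npy, 20.4% and 24.7% of those of Nts, and 7.50% and 5.24% of those of Piezo2. Without cells at 5 CP10K of Atf3 or more, 5 of 22 tested injury genes rose (Gal, Kif22, Npy, Nts and Sox11), among 229 calls in all, and Anxa1 and Ecel1 were no longer tested. Atf3 is itself on the list, so this step takes injury transcripts away by its construction. With members lacking a Sprr1a UMI alone (241, 427, 22 and 28 cells), Kif22 and Sox11 rose, Gap43 fell, and the list's median was -0.04.

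**Figure D4:**
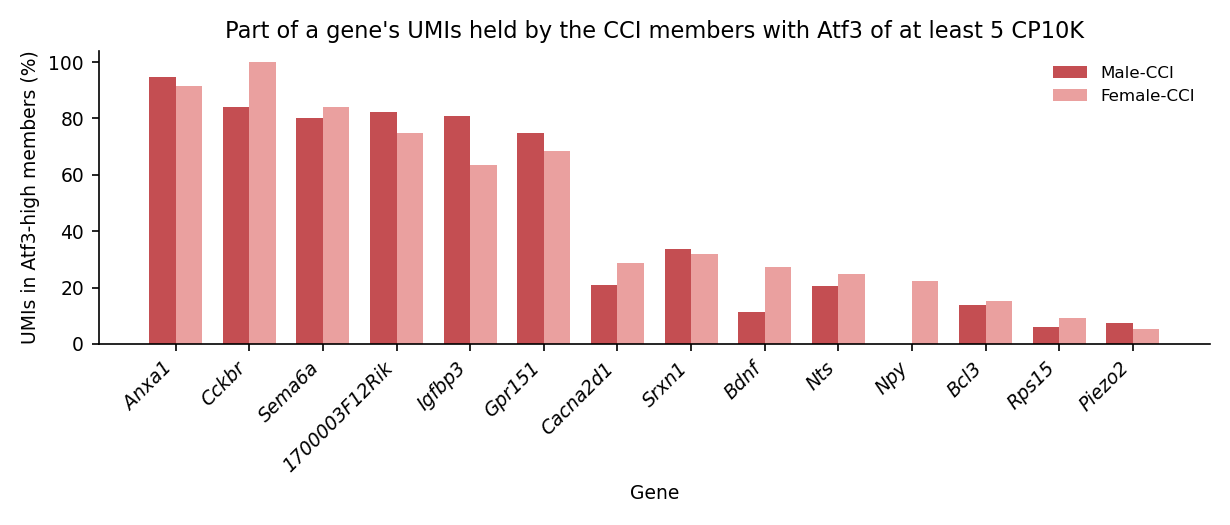
Percent of each gene's UMIs in CCI members that lay in cells with at least 5 CP10K of Atf3, for 14 genes in Male-CCI and Female-CCI. Anxa1, Cckbr and Sema6a lie near the top of the axis in both libraries, and Piezo2 lies below 10%.

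Anxa1 (3 sham and 131 CCI UMIs, 152-fold with a counting interval of 50.8 to 746) and Cckbr (3 and 32 UMIs, 37.1-fold, 11.6 to 189) were thus changes of few cells. Npy went from 0 to 18 UMIs and was called, at least 20.9-fold against a floor of 3 UMIs over the sham group (lower counting limit 15.3-fold), and no thinned member had a UMI of it, against up to 3.17% of SGC-like cells. Nts, neurotensin, was at 1.36, 3.51, 10.8 and 17.7 CPM and was called (log2 change 2.46 ± 0.45, edgeR adjusted p = 0.0293), while its thinned shares of 0.408%, 1.57%, 5.33% and 8.42% lay below the 0.775%, 2.35%, 6.35% and 12.7% of SGC-like cells, so these shares are not read as expression of Npy or Nts by the members. Nts lost its call under 7 of 22 alternatives, among them 0 Sprr1a UMIs and at least 4 of the 6 markers (edgeR, adjusted p = 0.0754). The part of free RNA in these changes was not tested.

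Among the touch genes, Piezo2 was at 450, 439, 666 and 703 CPM, with both CCI libraries above both sham libraries. It rose by 0.60 ± 0.07 on the log2 scale (edgeR, adjusted p = 2.23e-05), and by 0.62 without the Atf3-high cells and 0.65 in members without a Sprr1a UMI. Of 22 alternatives, 20 kept the call, which was lost with no limit on Sprr1a and with at least 2 of the 6 markers, where the change stayed positive (lowest 0.49). A Piezo2 UMI was in 89.4%, 84.8%, 89.3% and 94.7% of thinned members and in at most 4.71% of SGC-like cells. It was the 1 gene called among 15 tested cLTMR genes, whose median log2 change was 0.16, against 0.005 over all genes. Of the 15, 12 had a positive change and 9 had an unadjusted edgeR p below 0.05. In Th-high cells Piezo2 had a change of 0.45 (edgeR, adjusted p = 0.00785), below the fold limit, and the difference of the changes of the 2 classes did not pass the test (0.17, edgeR adjusted p = 0.466).

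Among the other transduction channels, Tmem63a, an osmosensitive channel, fell by 1.97 (edgeR, adjusted p = 0.0469). None of 9 sodium channel genes was called by edgeR or DESeq2 (3 and 2 at an unadjusted p below 0.05), and their median log2 change was 0.02. Among 21 potassium channel genes, Kcnk2, a background potassium channel, fell by 1.32 ± 0.40 (edgeR, adjusted p = 0.0479). Tmem63a lost its call under 11 of 20 alternatives and Kcnk2 under 13 of 21, and Tmem63a was not tested in members with at least 4 of the 6 markers. Of 12 calcium channel genes, Cacna2d1, the gabapentin-binding subunit, was at 148, 148, 204 and 225 CPM and rose by 0.51 ± 0.08 (edgeR, adjusted p = 0.000394), and Cacna1c, an L-type channel, fell by 1.15 ± 0.24 (edgeR, adjusted p = 0.0059). The Atf3-high cells held 20.9% and 28.6% of the Cacna2d1 UMIs, and without them its change was 0.21 and was not called. Cacna2d1 lost its call under 10 of 22 alternatives, among them leaving out Male-Sham or Female-CCI, and Cacna1c under 6 of 22, among them DESeq2 and leaving out Female-Sham.

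Among growth factor and cytokine receptor genes, Osmr, the oncostatin M receptor, was at 7.53, 6.25, 1.55 and 1.46 CPM and fell by 2.21 ± 0.33 (edgeR, adjusted p = 0.000435). Gfra1, the GDNF co-receptor, fell by 0.89 ± 0.22 (edgeR, adjusted p = 0.0196). Each of these had its CCI libraries below its sham libraries. In members with at least 4 markers Osmr fell by 1.52 (edgeR, adjusted p = 0.0315), and Gfra1 (-0.65, edgeR adjusted p = 0.354) was not called. Thinned members had an Osmr UMI in 3.67%, 1.34%, 0% and 0% of cells, against 3.10%, 3.53%, 11.1% and 7.94% of SGC-like cells. These shares are not read as expression of Osmr by the members.

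Of 18 tested redox genes, 2 rose. Srxn1, the enzyme that restores oxidized peroxiredoxins, was at 98.4, 95.3, 149 and 143 CPM and rose by 0.57 ± 0.08 (edgeR, adjusted p = 0.000169). Without the Atf3-high cells the change of Srxn1 was 0.11 and was not called. Nqo1, a quinone reductase, rose by 0.91 ± 0.26 (edgeR, adjusted p = 0.0373) and lost its call under 12 of 22 alternatives. The Srxn1 promoter (chr2:152105274-152105573, plus strand, RefSeq GRCm38.p6) is shown because it held 2 AP-1 motifs, 102 and 45 bases before the start, in capitals.
Srxn1: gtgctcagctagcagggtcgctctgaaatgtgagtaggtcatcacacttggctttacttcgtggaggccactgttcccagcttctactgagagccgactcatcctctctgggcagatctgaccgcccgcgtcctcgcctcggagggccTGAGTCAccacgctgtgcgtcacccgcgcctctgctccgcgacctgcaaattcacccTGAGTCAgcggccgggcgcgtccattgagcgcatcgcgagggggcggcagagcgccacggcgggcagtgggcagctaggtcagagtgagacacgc
Of 157 promoter windows of genes that rose, 14 (8.92%) held the AP-1 motif, against 4.64% of the windows of tested genes and 7.81% of all windows.

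Among genes called outside the lists, Fst, the activin antagonist follistatin, was at 18.1, 14.7, 47.9 and 53.8 CPM and rose by 1.62 ± 0.12 (edgeR, adjusted p = 1.13e-07). Vgf, a secretory granule protein, was at 22.9, 29.4, 61.4 and 69.4 CPM and rose by 1.29 ± 0.12 (edgeR, adjusted p = 4.03e-05). These 2 genes and the list members named above beyond the 4 of largest change were chosen after their values were seen. The largest falls outside the lists were of genes at a few CPM, among them Cdhr1, a protocadherin-like gene (log2 change -2.66), Thbd, thrombomodulin (-2.40), and Ptgir, the prostacyclin receptor (-2.25), all 3 called by edgeR with Benjamini-Hochberg adjustment. Dcdc2a (52 sham and 2 CCI UMIs, ratio 0.134 with a counting interval of 0.0158 to 0.508) and Galr1, a galanin receptor (47 and 2 UMIs, 0.148, 0.0174 to 0.565), fell to near the floor. Dcdc2a lost its call under 7 of 16 alternatives and Galr1 under 7 of 15. In members with at least 4 of the 6 markers, neither gene was tested, so their falls are not shown for those cells.

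Ribosomal protein and mitochondrial genes were called in both directions. Of 77 ribosomal protein genes, 4 rose (Rps15, Rpl12, Rpl17 and Rpl23a, by 0.52 to 0.54 on the log2 scale) and 4 fell, among them Rpl41 (-0.68) and Rps28 (-0.65). Of 13 mitochondrial genes, mt-Nd2 (0.52) and mt-Nd3 (0.58) rose and mt-Nd4l (-0.75) and mt-Atp8 (-0.60) fell. Without Male-Sham, 2 ribosomal protein genes rose and 10 fell, without Female-Sham 3 rose and 2 fell, and without Female-CCI 3 rose and 2 fell. Mitochondrial rises numbered 0 without Male-Sham or without Female-CCI. None of 13 immediate early genes, 18 glycolysis and gluconeogenesis genes, 19 identity transcription factors, 15 G protein-coupled receptors, 10 SGC markers or 5 C1q-like and partner genes tested from the lists was called by edgeR, with 3, 4, 11, 2, 2 and 1 at an unadjusted p below 0.05. DESeq2 called Jun among the immediate early genes and none of the other 5 lists. Receptors outside the list were called, among them Cckbr, Galr1 and Ptgir.

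**Figure D5:**
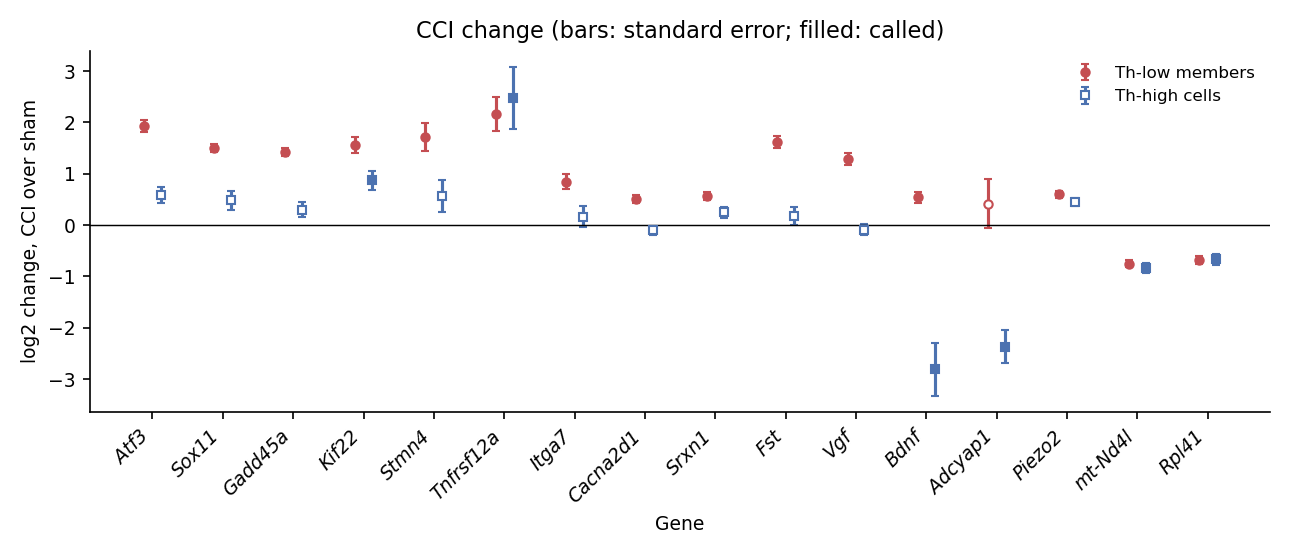
Log2 change, CCI over sham, with its standard error for 16 genes in members (circles) and Th-high cells (squares), with filled symbols for genes called by edgeR. Atf3, Sox11, Gadd45a and Kif22 lie above 0 in members, Rpl41 and mt-Nd4l below it, and Bdnf and Adcyap1 lie on opposite sides of 0 in the 2 classes. The members' change of Adcyap1 (0.42) was not called, and it was -0.25 without the Atf3-high cells.

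In Th-high cells, 110 of 10860 genes (1.01%) were called, 41 up (0.378%) and 69 down (0.635%). The classes hold different cells of the same libraries. Of the genes that rose, 18 rose in both, 10.5% of those in members and 43.9% of those in Th-high cells, among them Kif22 and Tnfrsf12a. Of the genes that fell, 25 fell in both, 18.2% and 36.2% of each list, among them Rpl41, Rps28 and mt-Nd4l.

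The difference of the CCI changes was then tested as an interaction. It passed for 60 of 11743 genes (0.511%), 54 with the more positive change in members (0.46%) and 6 with the more negative (0.0511%). Bdnf, a neurotrophin released from sensory neurons, was at 23.9, 24.4, 36.9 and 34.7 CPM in members and at 5.80, 10.0, 1.59 and 0.744 CPM in Th-high cells. It rose by 0.54 ± 0.11 in members (edgeR, adjusted p = 0.00378) and fell by 2.81 in Th-high cells (edgeR, adjusted p = 0.00715), a difference of 3.38 ± 0.44 (edgeR, adjusted p = 3.36e-11). Without the Atf3-high cells the difference was 3.18 and was still called, and the change in members, 0.36, was not. The rise in members lost its call under 8 of 22 alternatives, and it was 0.02 with 0 Sprr1a UMIs. Thinned members had a Bdnf UMI in 6.53%, 8.28%, 10.7% and 9.47% of cells, close to the 6.98%, 8.24%, 9.52% and 11.1% of SGC-like cells. These shares are therefore not read as expression of Bdnf by the members. The part of free RNA in the members' level was not tested.

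Adcyap1, the neuropeptide PACAP, was at 15.2, 28.3, 30.7 and 29.6 CPM in members, where the groups differed little, and at 15.9, 19.2, 5.18 and 1.86 CPM in Th-high cells, where it fell by 2.37 (edgeR, adjusted p = 0.000785). The difference was 2.80 ± 0.31 (edgeR, adjusted p = 5.06e-16), and 3 cells held 78.7% of the Adcyap1 UMIs of Female-CCI members. Of the injury genes, 7 of 24 differed between the classes (Anxa1, Atf3, Cacna2d1, Gadd45a, Jun, Sox11 and Stmn4), each with the larger change in members. The CCI members included 12 cells with at least 5 CP10K of Atf3. Leaving out such cells kept all 42 and 54 Th-high cells of Male-CCI and Female-CCI. Without those cells the interaction calls over all genes became 29, and Anxa1 was no longer tested. Atf3 was at 19.4, 20.9, 30.7 and 30.9 CPM in Th-high cells, and the difference of its changes was 1.36 ± 0.16 (edgeR, adjusted p = 3.27e-13). Once cells with the highest doublet scores were left out, edgeR called 0 of 22 injury genes for a difference, with 8 at an unadjusted p below 0.05. DESeq2, on all members, called Atf3 and Jun.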

How the data were processed

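The 4 libraries were 10x Genomics single-cell RNA-seq of sorted GFP+ cells from L4-5 DRGs. The authors deposited filtered matrices of whole-number UMI counts for 31053 genes, unnormalized, on mm10. The Cell Ranger version is 3.0.2 per the file headers and 2.1.1 per the submitters' processing notes. The members, gene lists and tests were chosen with earlier results of these data known.

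Counts of members were summed per library and tested with edgeR 4.0.16 (robust quasi-likelihood, TMM, filterByExpr, Benjamini-Hochberg over all genes) in R 4.3.3, leaving out the 8 genes of the rule, with male and female as replicates of a surgery. Because the mice were pooled, p-values measure only the spread between these pools. The fit was tested on simulated data. Named were genes of the rule, list genes called (at most 4 a list) or describing identity, the 10 called genes of largest change in each direction, genes of the largest ratios between classes, and 10 genes of the interaction. Other names were chosen after their values were seen. The Th-high gate first written (fewer than 3 markers) left 2 to 7 cells per library, so Th-high cells with any number of markers were used. Scrublet's automatic threshold marked 0 to 121 cells per library and was not relied on, so no doublets were removed in the main analysis. As an alternative, the cells of highest score were removed in the number the study lists. DESeq2 1.42.0 was another alternative, and those on shared barcodes, Mrgprd or Mrgpra3 cells and Atf3-high cells were added after seeing the data. Sequences came from RefSeq (GRCm38.p6). A few genes that the rules above would name are not reported here.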

Additional observations from a re-analysis of the deposited data

Results flagged for a closer look

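The CCI change in members differed from that in Th-high cells for 60 genes by the interaction test (edgeR, Benjamini-Hochberg adjusted p below 0.05), and the 10 of largest difference are given here. The log2 differences, members minus Th-high cells, were 6.56 for Anxa1, 6.54 for Cthrc1, 3.65 for Sphkap, 3.49 for Bcl3, 3.43 for Car8, 3.38 for Bdnf, 2.94 for Dbpht2, 2.80 for Adcyap1, 1.99 for Igfbp3 and 1.94 for Npy1r.

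Several of these calls held under few alternatives, counting only the alternatives in which the gene was tested. They were kept under 3 of 22 for Cthrc1, 3 of 22 for Sphkap, 9 of 22 for Dbpht2, 13 of 22 for Bcl3, 16 of 21 for Car8, 15 of 19 for Anxa1, 17 of 22 each for Igfbp3 and Npy1r, and 20 of 22 each for Bdnf and Adcyap1. All 10 but Anxa1 lost the call or reversed when the rule was applied after thinning.

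All but Igfbp3 had 13 or fewer UMIs in the Th-high cells of each CCI library. Cthrc1, a secreted collagen-associated protein, was at 10.3, 9.47, 11.9 and 11.4 CPM in members and had 15, 6, 0 and 0 UMIs in Th-high cells, so its fitted difference depends on the prior count. Sphkap had 24, 66, 0 and 1 UMIs there, Bcl3, a nuclear regulator of NF-kappaB, had 20, 12, 2 and 0, Car8 had 58, 68, 0 and 3, and Dbpht2 had 10, 35, 1 and 2. Npy1r, a neuropeptide Y receptor, had 53, 138, 12 and 5 UMIs in Th-high cells and stood at 11.7, 15.2, 17.9 and 11.6 CPM in members.

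The UMIs of several of these genes lay in few members. The 3 cells with most UMIs held 95.9% and 87.9% of the Anxa1 UMIs of Male-CCI and Female-CCI members, 83.3% and 76.9% of those of Car8, and 77.0% and 44.6% of those of Igfbp3, which binds insulin-like growth factors. For Bcl3 they held 23.5% and 28.2%. Without cells at 5 CP10K of Atf3 or more, the difference stayed past the test for Car8 (3.54), Bcl3 (3.37), Bdnf (3.18), Adcyap1 (2.07) and Npy1r (1.98), and was 0.21 for Igfbp3, which did not pass. The part of free RNA, of doublets and of these few cells in the differences was not tested.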

How the results depend on the processing

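The lower share of members in CCI libraries kept its direction under every alternative run, between -2.08 and -5.76 percentage points. The 308 calls in members became 192 with 0 Sprr1a UMIs (44.3% up, against 55.5%), 497 with no limit on Sprr1a (67.4% up), 158 with at least 2 of the 6 markers, 145 with the rule applied after thinning, 194 without the highest Scrublet scores and 95 with DESeq2, and 174 to 327 when 1 library was left out, the lowest without Female-Sham. The 110 calls in Th-high cells became 39 with DESeq2 and 10 to 113 when 1 library was left out, with 45 without Female-Sham, 33 without Male-CCI and 10 without Female-CCI. The 60 calls of the interaction became 26 with 0 Sprr1a UMIs, 152 with no limit, 12 after thinning, 17 without the highest Scrublet scores, 29 without Atf3-high cells and 10 with DESeq2, and 40 to 55 when 1 library was left out. The cause of these changes was not tested. Without barcodes that occur in more than 1 library, 279 genes were called in members.

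With sex as a replicate block, 398 genes were called in members (208 up and 190 down, 306 of them among the 308), 165 in Th-high cells and 59 for the interaction. The libraries of a sex share no animals, so the block pairs sexes and not mice.

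Changes that reversed were those of Cacna1c (0.063), Gfra1 (0.37), Npy (-1.44), Nts (-0.27), Rbp2 (0.027) and Tmem63a (0.059) with at least 2 markers, of Gfra1 (0.20) with no Sprr1a limit, of Igfbp3 (-0.010) with 0 Sprr1a UMIs, and the difference of Sphkap (-1.47) after thinning. Of 952 alternative values of genes named in members, 740 kept their direction and call, 197 lost the call, 7 gained it and 8 reversed. Alternatives in which a gene was no longer tested are not among these values and do not count as lost calls. Anxa1, for example, had no value with 0 Sprr1a UMIs or without Atf3-high cells. With 75 and 95 members in the CCI libraries, 3 UMIs stood for up to 0.728 CPM, which limits what can be said of genes at a few CPM.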
